A study of Mus musculus with 6 samples.

Results

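The 42 genes described here are interferon response genes, a set named by symbol that covers RNA and DNA sensors, transcription factors of the pathway, antiviral effectors, 1 chemokine and the interferon-inducible GTPases of the GBP and IRG families. Each gene was taken from the probeset that the array annotation gives to it alone, and where a gene had several such probesets, the one with the highest mean over the 6 arrays was used. In this way 35 of the 42 genes had a value, of 19938 genes measured in all. Of the 35, 29 were grouped as type I genes and 4 as GBP or IRG genes (Gbp3, Gbp5, Iigp1 and Irgm1), and Irf1 and Cxcl10, which both interferon types induce, were kept apart. Isg15, Ifi47, Gbp2, Igtp, Irgm2 and Ifi204 lie only on probesets that the annotation gives to several genes, and Ifi44 is unnamed in it, so no value is given for any of them.

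The arrays measured hematopoietic stem and progenitor cells sorted as Lin-Kit+Sca-1+ (KSL) from the bone marrow of young adult wild-type FVB/nJ mice. Control cells received the lentivirus pCAD-IRES-GFP, and HLX cells received a lentivirus carrying the homeobox gene HLX, which the series writes both as pCAD-HLX-IRES-GFP and as pCAD-IRES-GFP-Hlx. In both groups infection took place in IMDM with FBS, mIL-3, mIL-6, mSCF and 8 µg/ml polybrene, and GFP+ cells were sorted after 2 days, so every sample had been exposed to a lentivirus. RNA from 5000 to 10000 sorted cells was amplified from 3 ng with the NuGEN Ovation Pico system. There were 3 arrays per vector, numbered 1 to 3. The labels give no meaning to the number and do not tell whether replicates came from separate mice or cultures, so a p-value here weighs a difference against a spread between samples that may be technical.

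Type I interferons act through the receptor IFNAR, JAK1 and TYK2 on the complex ISGF3, which includes STAT2 and IRF9 and binds the interferon stimulated response element in promoters. Type II interferon, IFN-γ, acts through IFNGR, JAK1 and JAK2 on gamma activated sites and is known for inducing the GBP and IRG GTPases of host defence. Many genes answer to both. In blood-forming stem cells interferons are known to end quiescence, and Sca-1, the sorting marker, is itself interferon-inducible.

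Values are log2 expression levels after RMA, 1 per probeset and array, and levels of different probesets are not comparable with each other. The OAS, IFIT, GBP and IRG families hold close relatives, and how far the probes tell them apart was not tested. The median of all probesets lay at 6.32 to 6.40 in the 6 arrays. Of the 35 genes 28 had a mean above the median probeset mean of 6.36, and Ifit1, Ifit3, Mx1, Mx2, Rsad2, Iigp1 and Cmpk2 lay below it. Among markers of the sorted cells, Kit, Cd34, Flt3 and Meis1 were above that median, and the Sca-1 gene Ly6a had no probeset of its own. Hlx itself was 2.96 log2 units ± 0.27 (SE) higher with the HLX vector (limma, adjusted p = 0.0782), with 6.99, 7.29 and 7.62 in the control arrays and 10.75, 9.74 and 10.28 in the HLX arrays.

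Array by array, the interferon response genes were high together in 2 of the 6 arrays, control 1 and HLX 1, and lower in the other 4. The highest value of a gene lay in control 1 for 20 of the 35 genes and in HLX 1 for 13, and in control 3 for Gbp5 and Irf9. No gene of the 35 had its lowest value in control 1 or HLX 1. Both arrays numbered 1 lay above all other 4 for 25 of the 35 genes (71.4%), against 6.95% of all genes measured, and the same reading gave 0 of 35 for the arrays numbered 2 and 0 of 35 for those numbered 3, against 4.27% and 13.4% of all genes. This grouping by number was chosen after the values were seen and is a description without a test.

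In terms of size, the median gene of the 35 was 0.82 log2 units (1.77-fold) higher in control 1 than in the mean of control 2 and control 3. The corresponding median in HLX 1 was 0.65 (1.57-fold) above HLX 2 and HLX 3. Over all genes these medians were -0.032 and -0.0098. Both differences were above 0 for 33 of the 35 genes. Both exceeded 2-fold for 10 of the 35, which are Dhx58, Ifit1, Ifit3, Iigp1, Irf7, Isg20, Oas1a, Oas2, Oasl2 and Rtp4. Only 28 genes in all met that rule (0.14% of those measured). The same rule met 5 genes for the arrays numbered 2 and 2 genes for those numbered 3, with 0 of the interferon response genes in either.

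**Figure D1:**
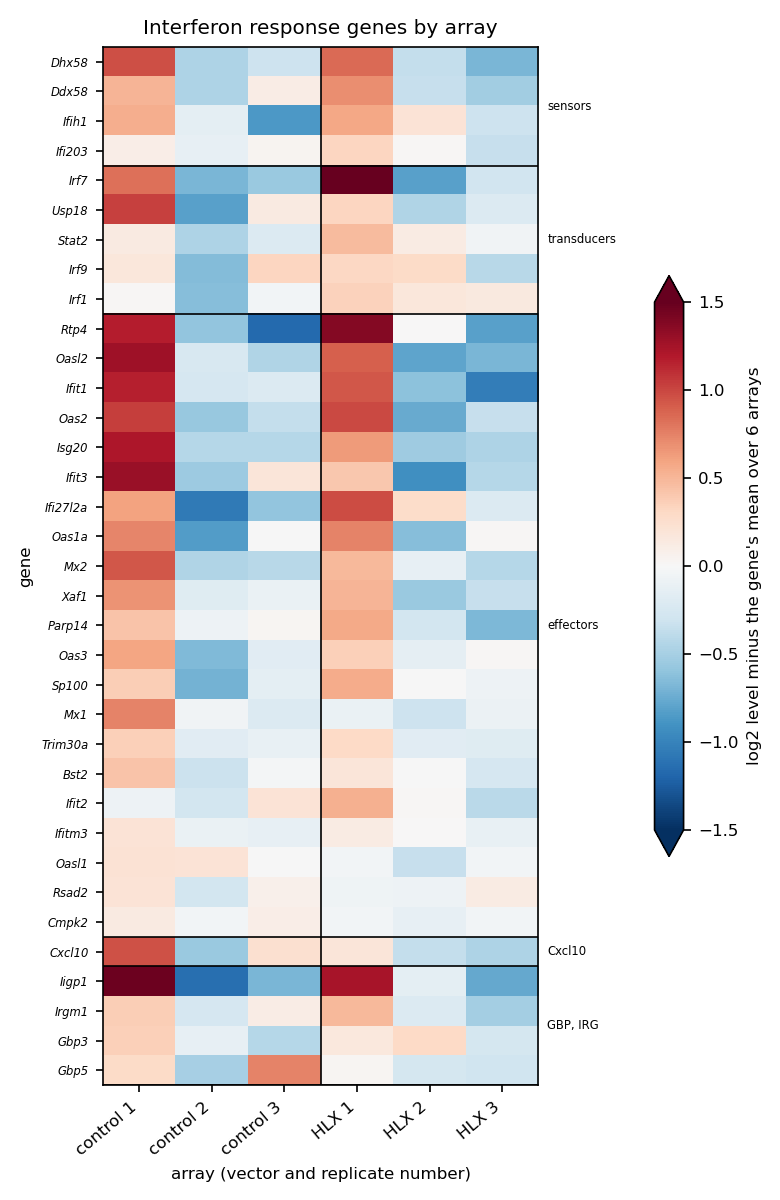
Deviation of each of the 35 interferon response genes from its own mean over the 6 arrays, in log2 units, with genes in rows, grouped by role, and arrays in columns; colours end at 1.5 in either direction. Control 1 and HLX 1 are the columns above the mean for most genes, with medians of 0.54 and 0.49, and control 2 has the lowest median at -0.45.

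The 4 genes of the set grouped here as sensors of nucleic acid were all highest in both arrays numbered 1. Dhx58, which encodes LGP2, a regulator of the RNA sensors, measured 7.74, 6.31 and 6.47 in control 1, 2 and 3 and 7.62, 6.42 and 6.09 in HLX 1, 2 and 3. Both arrays numbered 1 stood more than 1 log2 unit above every other array for this gene, and the mean of the pair was 2.56-fold above that of the other 4. Ddx58 (RIG-I) and Ifih1 (MDA5), the sensors of viral RNA, were 1.87-fold and 1.79-fold higher on the same reading. Ifi203, a nuclear DNA-binding protein of the HIN-200 family, differed least among the 4, by 1.25-fold. Its control 1 lay only 0.055 log2 units above control 3.

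Of the 5 genes that carry or brake the signal, Irf7, Stat2 and Usp18 had both arrays numbered 1 on top, and Irf9 and Irf1 did not. Irf7, the transcription factor that amplifies type I interferon production, measured 7.49, 5.98 and 6.10 in the control arrays and 8.17, 5.85 and 6.37 in the HLX arrays. The pair of high arrays stood 3.38-fold above the rest, and HLX 1 was the highest of all. Usp18, the ISG15 protease that dampens signalling at the type I receptor, measured 8.49, 6.64 and 7.59 with the control vector and 7.78, 7.0 and 7.25 with HLX. Here control 3 came close to HLX 1, and control 2 was the lowest array. Stat2, a subunit of ISGF3, was 1.37-fold higher in the pair. Irf9, the DNA-binding subunit of ISGF3, broke the pattern, with 7.68, 6.86 and 7.83 in the control arrays and 7.82, 7.79 and 7.09 in the HLX arrays, so that control 3 and HLX 2 were as high as the arrays numbered 1.

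Among the 21 effector genes, 16 had both arrays numbered 1 on top. Rtp4, a receptor transporter protein with antiviral activity, measured 10.09, 8.32 and 7.74 in the control arrays and 10.29, 8.91 and 8.09 in the HLX arrays. Each vector's first array was thus the highest, and the pair exceeded the other 4 by 3.79-fold. Isg20, an RNA exonuclease, measured 9.12, 7.49 and 7.48 in the control arrays and 8.55, 7.38 and 7.44 in the HLX arrays. Its 4 lower arrays lay between 7.38 and 7.49, clear of both high arrays. Ifi27l2a, a small interferon-induced mitochondrial protein, measured 9.55, 7.88 and 8.35 with control and 9.92, 9.22 and 8.74 with HLX, with HLX 2 not far below control 1.

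The oligoadenylate synthetases make the 2-5A messenger that activates RNase L, and the OAS-like genes are their relatives. Oas2 measured 8.52, 6.92 and 7.12 in the control arrays and 8.48, 6.73 and 7.13 in the HLX arrays. Oasl2 measured 9.35, 7.82 and 7.62 in the control arrays and 8.96, 7.28 and 7.39 in the HLX arrays. Both genes had control 1 and HLX 1 well clear of the rest, by 2.87-fold for Oas2 and 3.09-fold for Oasl2. Oas1a measured 8.94, 7.38 and 8.21 with control and 8.96, 7.58 and 8.23 with HLX, so that its arrays numbered 3 lay between the high pair and the low arrays numbered 2. Oas3 was 1.64-fold higher in the pair. Oasl1, which restrains translation of Irf7, differed from its relatives, with 7.60, 7.59 and 7.37 in the control arrays and 7.34, 7.04 and 7.33 in the HLX arrays. Its spread over the arrays was small and HLX 1 was not raised.

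Ifit1 and Ifit3, of a family whose proteins bind viral RNA, lay below the median probeset level and still followed the high arrays. Ifit1 measured 7.49, 6.06 and 6.11 with control and 7.25, 5.70 and 5.28 with HLX, a 2.99-fold excess of the arrays numbered 1. Ifit3, which partners Ifit1, measured 7.01, 5.17 and 5.90 with control and 6.12, 4.80 and 5.29 with HLX, an excess of 2.42-fold. Their relative Ifit2 did not share the order, since control 3 at 7.19 lay above control 1 at 6.90. The antiviral GTPases also parted. Mx2 was 2.08-fold higher in the pair, while Mx1 was high in control 1 alone, at 5.87 against 4.81 to 5.07 in the other 5 arrays. Rsad2 (viperin) and Cmpk2, a mitochondrial nucleotide kinase encoded beside it, were the genes of the 35 with the smallest excess, 0.11 and 0.074 log2 units, and both lay below the median probeset level. The other effectors with the pair on top were Xaf1, Bst2, Trim30a, Ifitm3, Sp100 and Parp14, at 1.19-fold to 1.85-fold, and Ifitm3, a membrane protein that blocks viral entry, had the smallest of these.

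Among the GBP and IRG genes, Iigp1 and Irgm1 had both arrays numbered 1 on top and Gbp3 and Gbp5 did not. Iigp1, an immunity-related GTPase that attacks the vacuoles of intracellular parasites, measured 7.73, 5.13 and 5.58 with control and 7.50, 6.11 and 5.50 with HLX. Its 4.10-fold excess in the pair was the largest among the 35 genes, though the mean of this gene lay below the median probeset level. Irgm1, a regulator of the other IRG proteins, measured 8.32, 7.70 and 8.07 in the control arrays and 8.45, 7.75 and 7.44 in the HLX arrays, an excess of 1.56-fold. Gbp3, a guanylate binding protein, measured 7.48, 6.99 and 6.69 with control and 7.27, 7.42 and 6.85 with HLX. Control 1 was its highest array, but HLX 2 lay above HLX 1. Gbp5, which promotes inflammasome assembly, measured 7.08, 6.30 and 7.54 with control and 6.83, 6.54 and 6.50 with HLX, and control 3 was its highest array. Cxcl10, the CXCR3 chemokine that both interferon types induce, measured 7.94, 6.43 and 7.22 with control and 7.16, 6.62 and 6.52 with HLX, where control 3 just exceeded HLX 1.

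Set side by side, the type I genes and the GBP and IRG genes both had control 1 and HLX 1 as their highest arrays by median, and the type I genes had the wider swing. The median deviation of the 29 type I genes from their own means was 0.59 in control 1, -0.42 in control 2 and -0.13 in control 3, and 0.51, -0.17 and -0.31 in HLX 1, 2 and 3. For the 4 GBP and IRG genes it was 0.36, -0.38 and -0.16 with control and 0.32, -0.17 and -0.40 with HLX. Both arrays numbered 1 were on top for 23 of 29 type I genes (79.3%) and for 2 of 4 GBP and IRG genes. The difference between the classes was not tested. With Iigp1 left out because of its low level, the gap between the lower of the arrays numbered 1 and the highest of the others in the median of the GBP and IRG genes shrank from 0.48 to 0.041, while that of the type I genes above the median level was 0.67.

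**Figure D2:**
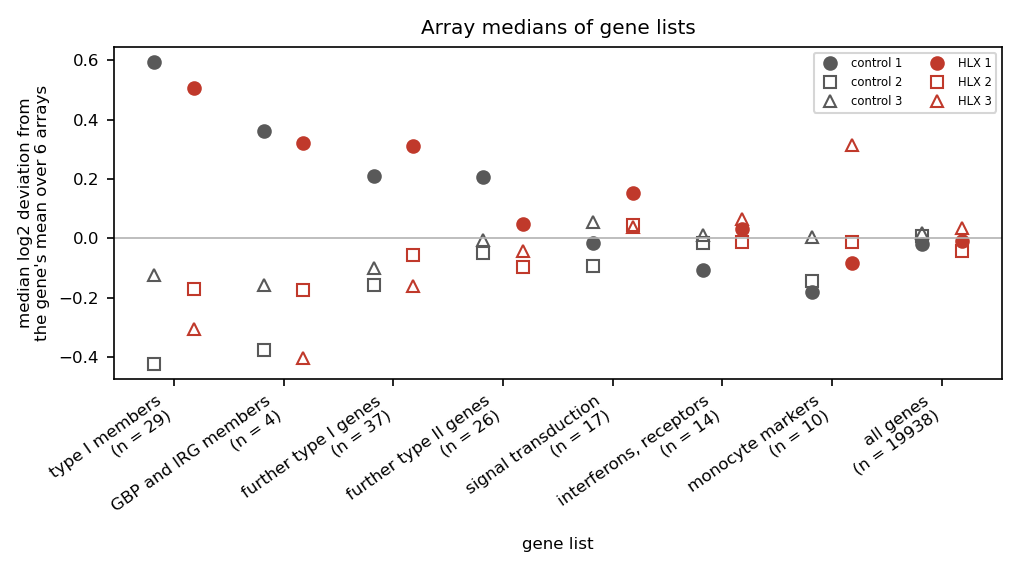
Median deviation of each gene list from its genes' own 6-array means, in log2 units, with 1 point per array (control grey, HLX red, filled circles for the arrays numbered 1) and the number of genes under each list. Control 1 and HLX 1 stand above the other arrays for the type I genes (0.59 and 0.51) and the GBP and IRG genes (0.36 and 0.32), and for all genes measured the points lie between -0.045 and 0.034.

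**Figure D3:**
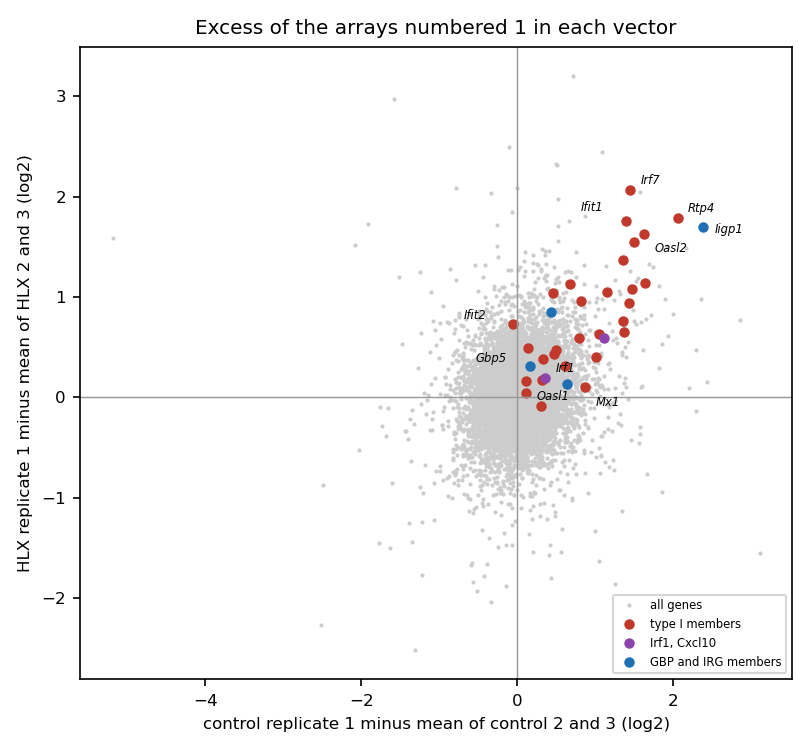
For every gene, the level in control 1 minus the mean of control 2 and 3 against the level in HLX 1 minus the mean of HLX 2 and 3, both in log2 units, with all 19938 genes in grey and the interferon response genes in colour. Of the 35 coloured points 33 lie in the upper right quadrant, and 10 lie above 1 on both axes.

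Wider lists of pathway genes gave the following. Of 37 further type I induced genes with a value, 22 (59.5%) had both arrays numbered 1 on top, against 6.95% of all genes. Their medians in control 1 and HLX 1 were 0.21 and 0.31. Of 26 further genes of the type II response and antigen presentation, 10 (38.5%) had the pair on top. Among these further genes, Ddx60, an RNA helicase of antiviral defence, measured 8.08, 6.69 and 6.56 with control and 7.32, 6.15 and 6.27 with HLX. In the list of nucleic acid sensing genes, Zbp1, a sensor of Z-form nucleic acid, was 2.84-fold higher in the pair. Of the signal transduction genes 5 of 17 (29.4%) had the pair on top, and of the nucleic acid sensing genes 4 of 21 (19.0%). No gene of the 14 interferons and receptors did, and 14 genes are too few to set 0 apart from the 6.95% of all genes. Ifnb1, which encodes interferon beta, stayed between 4.58 and 4.88 in all 6 arrays, and Ifng, which encodes IFN-γ, between 6.16 and 6.39, and the mean of each over the arrays was below the median probeset mean. Of the other interferon genes, Ifna5, Ifnl2 and Ifna2 had means above it, at 8.13, 7.89 and 6.63, and Ifna4, Ifnk and Ifne below it.

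As lists, the markers of other cell types did not have control 1 and HLX 1 as their highest arrays by median. Both arrays numbered 1 were on top for 0 of 10 monocyte and macrophage markers, 2 of 12 dendritic cell markers, 0 of 10 T and NK cell markers, 2 of 7 B cell markers and 0 of 12 granulocyte and mast cell markers, and for 0 of 10 stress genes, against 6.95% of all genes. The dendritic cell markers were Cd74 and Bst2, which is itself 1 of the 35 genes, and the B cell markers were Pax5 (1.38-fold) and Cr2 (1.06-fold). The median deviations of these lists in control 1 and HLX 1 lay between -0.19 and 0.019. Lists of 10 or 12 genes are too short to set a count of 0 apart from 6.95%. Most of the cell type markers were also dim, and a dim marker can show little change. Means lay above the median probeset mean for 4 of 10 monocyte, 5 of 12 dendritic cell and 1 of 10 T and NK cell markers. The same held for 2 of 7 B cell and 1 of 12 granulocyte and mast cell markers. The monocyte list had its highest median, 0.31, in HLX 3, where the interferon response genes were at -0.31, and Csf1r, the receptor of macrophage colony-stimulating factor, measured 8.92 there against 6.28 to 7.80 in the other 5 arrays. Single markers did move with 1 or both of these arrays. In control 1 alone Cpa3 and Mcpt8 of the granulocyte and mast cell list and Cd79b of the B cell list were high. Cpa3 was at 7.48 against 4.77 to 5.10 in the other 5 arrays, and Mcpt8 at 6.596 against 4.85 to 5.86. Cd79b was at 8.49 against 7.28 to 7.86. The granulocyte gene Mpo and the myeloid genes Cd14 and Itgax were below the mean of the other arrays of their vector in both control 1 and HLX 1, with differences of -0.90 and -0.80 for Mpo, -0.996 and -0.69 for Cd14 and -0.60 and -1.67 for Itgax. Their part in the levels of the interferon response genes was not tested. In bulk samples like these, fewer cells of a type and less RNA per cell cannot be told apart.

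Some promoters of the set carry a core of the element that ISGF3 is known to bind. RefSeq promoter sequences of the assembly GRCm38.p6, which is from the strain C57BL/6J and not from FVB/nJ, held an entry for 32 of the 42 genes, and the 250 bases before the start site were searched on both strands for GAAANNGAAA, a core of the interferon stimulated response element, and TTCNNNGAA, a core of the gamma activated site. GAAANNGAAA was found in 17 of 32 (53.1%), against 3.46% of all 27025 genes with a promoter entry, and TTCNNNGAA in 8 of 32 (25.0%), against 8.13% of all genes. Of the measured genes with both arrays numbered 1 on top and a promoter entry, 9 of 17 held GAAANNGAAA, as did 4 of 9 of the other measured genes. A match describes these letters only and not binding in the cells. The windows below show the element in an OAS gene and in Cxcl10, in 3 GTPase genes, and in Ifit1 and Ifit3, which were chosen after their values were seen; capitals mark the matches, and where a match is on the opposite strand the core reads as its reverse complement.

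Oas1a: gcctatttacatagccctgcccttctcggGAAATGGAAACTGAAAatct
Cxcl10: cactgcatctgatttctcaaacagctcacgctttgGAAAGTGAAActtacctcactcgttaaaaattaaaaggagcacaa
Gbp3: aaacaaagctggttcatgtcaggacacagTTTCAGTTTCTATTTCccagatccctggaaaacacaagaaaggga
Gbp5: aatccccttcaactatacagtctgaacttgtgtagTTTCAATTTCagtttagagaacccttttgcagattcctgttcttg
Irgm1: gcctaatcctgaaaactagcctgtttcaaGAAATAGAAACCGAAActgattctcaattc
Ifit1: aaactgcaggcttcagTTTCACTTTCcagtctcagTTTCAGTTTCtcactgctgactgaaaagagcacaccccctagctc
Ifit3: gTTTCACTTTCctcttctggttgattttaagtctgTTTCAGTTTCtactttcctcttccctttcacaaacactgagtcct

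Each window is read 5′ to 3′ along its gene's strand. In GRCm38.p6 they lie at chr5:120907526-120907574 on the minus strand for Oas1a, chr5:92349058-92349137 on the minus strand for Cxcl10, chr3:142559970-142560043 on the plus strand for Gbp3 and chr3:142496734-142496813 on the plus strand for Gbp5. The others lie at chr11:48871421-48871479 on the minus strand for Irgm1, chr19:34640769-34640848 on the plus strand for Ifit1 and chr19:34583372-34583451 on the plus strand for Ifit3. All of them are in the 250 bases before the annotated start of the gene. In Oas1a, Gbp3 and Irgm1 adjacent matches overlap, so the GAAA blocks run in series, and in Ifit1 and Ifit3 a pair of matches stand apart on the opposite strand. Oas1a, Irgm1, Ifit1 and Ifit3 had both arrays numbered 1 on top, and Gbp3, Gbp5 and Cxcl10, whose windows hold the same core, did not.

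Between the vectors, no interferon response gene differed beyond the spread between replicates once all genes were adjusted for. With HLX 14 of the 35 were higher and 21 lower, and the median difference was -0.041 log2 units, against -0.0078 over all genes. No gene of the 35 passed an adjusted p of 0.05 in limma (0.0% of all 19938 genes did), and the smallest adjusted p among them was 0.9999. At an unadjusted p under 0.05, 1 of 35 passed (2.86%), against 4.8% of all genes. The HLX and control arrays did not overlap for 2 of 35 (5.71%), against 9.19% of all genes. The median SD within a vector was 0.54 (control) and 0.44 (HLX) for these genes, against 0.13 and 0.15 over all genes. In this fit, which leaves out the replicate numbers, 3 arrays per vector thus measured these genes less precisely than most. Part of that spread is the excess of the arrays numbered 1, which both vectors share.

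Irf1, a transcription factor that both interferon types induce, was the gene at an unadjusted p under 0.05. It measured 7.42, 6.77 and 7.36 in the control arrays and 7.75, 7.57 and 7.55 in the HLX arrays. All HLX arrays lay above all control arrays, with control 2 the lowest. The difference was 0.45 ± 0.18 (SE, n = 3 per vector), or 1.36-fold, with a 95% interval of 0.022 to 0.87 (limma, unadjusted p = 0.0415, adjusted p = 0.9999). Irf1 alone of the 35 had more than 1 probeset of its own, and with their mean the difference was 0.32 and the unadjusted p missed 0.05. Without control 2 the difference of Irf1 was 0.24, and its unadjusted p also missed 0.05 when any 1 of the HLX arrays was left out. Oasl1, whose values are given above, was the gene with all HLX arrays below all control arrays. Its difference was -0.28 ± 0.12 (SE, n = 3 per vector), or 1.22-fold lower (limma, unadjusted p = 0.0555, adjusted p = 0.9999).

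The differences with the largest size did not pass either. Ifi27l2a was at 0.70 ± 0.45 (SE), while Ifit3 was at -0.63 ± 0.49, Ifit1 at -0.47 ± 0.57, Cxcl10 at -0.42 ± 0.36 and Oasl2 at -0.39 ± 0.57. Stat2, with a smaller difference, was at 0.36 ± 0.19. For Rtp4 the estimate was 0.38 with a 95% interval of -1.28 to 2.05, which spans more than 2-fold in either direction. By class, 11 type I genes were higher with HLX and 18 lower, with a median of -0.041, and 2 GBP and IRG genes were higher and 2 lower, with a median of -0.0099. The single differences were 0.13 ± 0.23 for Gbp3, -0.35 ± 0.29 for Gbp5, 0.22 ± 0.74 for Iigp1 and -0.15 ± 0.27 for Irgm1. Leaving out HLX 1 put the median of the GBP and IRG genes at -0.39, and leaving out both arrays numbered 1 raised the members at an unadjusted p under 0.05 from 1 to 4 (Ifi27l2a, Ifit1, Oasl2 and Parp14; 11.4%, against 5.16% of all genes in that setting), with 0 at the adjusted threshold.

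**Figure D4:**
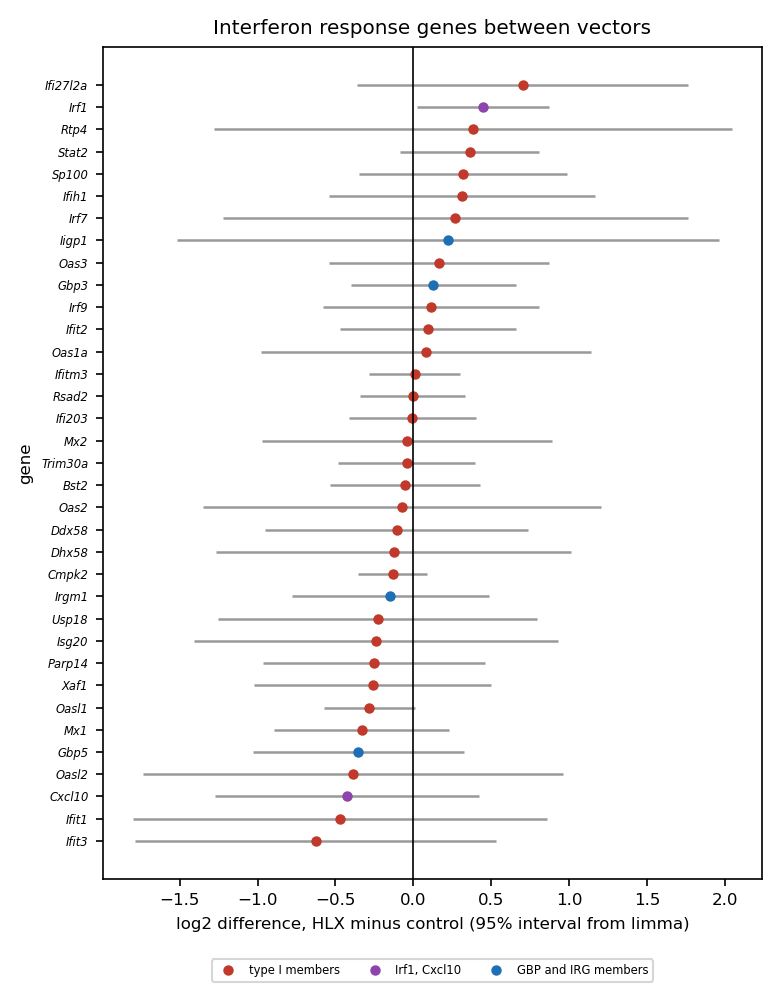
Log2 difference, HLX minus control, of each of the 35 interferon response genes, with the 95% interval from limma as a line, ordered by size. Every interval except that of Irf1, which runs from 0.022 to 0.87, includes 0.

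In the wider pathway lists, no gene passed the adjusted threshold between vectors either. At an unadjusted p under 0.05, the level that 4.8% of all genes reached, stood 2 of the 14 interferons and receptors, 1 of 21 sensing genes, 1 of 37 further type I genes, 1 of 26 further type II genes and 0 of 17 signal transduction genes, so the counts of all these lists but the first were at or below that share. The 2 of the first list are receptor chains, both higher with HLX. Ifnar2, a chain of the type I receptor, measured 10.12, 10.14 and 10.16 in the control arrays and 10.35, 10.48 and 10.51 in the HLX arrays. The 2 groups did not overlap, and the difference was 0.30 ± 0.092 (SE, limma, adjusted p = 0.932). Ifngr2, a chain of the type II receptor, was 0.33 ± 0.13 higher, while their partner chains Ifnar1 and Ifngr1 were at 0.019 and 0.11. The sensing gene was Samhd1, a nucleotide hydrolase that limits retroviral DNA, at 0.35 ± 0.13. The further type I gene was Trim21, an intracellular antibody receptor, at -0.61 ± 0.18 (limma, adjusted p = 0.932), and the further type II gene was Cxcl9, a relative of Cxcl10, at -0.28 ± 0.11.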

How the data were processed

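The authors deposited log2 levels for each probeset in each array. The submitters' processing notes name RMA and Affymetrix Power Tools. RMA removes differences common to most transcripts and compresses weak signals. Not given in the sources used here are the software version and the build behind the probe annotation. Of 35556 probesets 21789 had 1 gene symbol, 1621 several and 12146 none listed. Gene IDs of 21698 matched the RefSeq table of GRCm38.p6, and 0 symbols needed an update. One-symbol probesets, the brightest per gene, gave 19938 genes, with no filter on dim probesets.

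HLX was compared with control by a 2-sided test in limma 3.58.1 (lmFit and eBayes, R 4.3.3). P-values were adjusted by Benjamini-Hochberg over the whole table, with a threshold of 0.05. SEs are moderated, and the residual degrees of freedom were 4. The code was tested on simulated data. Precision is limited by 3 arrays per vector. Medians over lists are descriptions without a test. Promoters were searched in Python 3.11.15, and figures drawn with matplotlib 3.10.9.

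Values in every array are given for members at an unadjusted p under 0.05, the 10 with the largest SD among those above the median probeset level, Irf1, Oasl1 and the measured GBP and IRG genes. Ifit1, Ifit3, Irf9 and single values of Ifit2 and Mx1 were added after their values were seen. In each further list up to 4 genes with the smallest p could be named, and Ddx60, Zbp1, the interferon genes, Ifnar1, Ifngr1, Cd14, Cd74 and Pax5 were named after their values were seen. The members and lists were chosen with earlier results of these data known. Alternatives changed the variance model, array weights, filter, normalization, probesets per gene, replicate block and arrays left out. Leaving out both arrays numbered 1 was chosen after seeing the data.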

Additional observations from a re-analysis of the deposited data

How the results depend on the processing

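No interferon response gene passed the adjusted threshold in limma under any alternative. At an unadjusted p under 0.05 the count was 1 (2.86%, against 4.8% of all genes). It became 2 with array weights and 2 with a repeated quantile normalization (5.71% each, against 6.03% and 5.0%). With the mean over a gene's probesets it was 0 (against 4.78%), and with both arrays numbered 1 left out it was 4 (11.4%, against 5.16%). With single arrays left out the count was 0 to 4. It was 4 without control 1 (11.4%, against 5.27% of all genes), 2 without control 2, control 3 or HLX 1 (5.71%, against 4.04%, 4.25% and 5.06%), and 0 without HLX 2 or HLX 3 (against 4.7% and 6.36%). Genes whose groups did not overlap numbered 2 in the main setting (5.71%, against 9.19% of all genes). The count was 1 with median centring (2.86%, against 10%) and 1 with the mean over a gene's probesets (2.86%, against 9.23%). Leaving out single arrays gave 2 to 7 such genes. It was 6 without control 1, 5 without control 2 and 7 without HLX 1 (17.1%, 14.3% and 20%, against 20.2%, 16.7% and 17.9%). It was 3 without control 3 and 2 without HLX 2 or HLX 3 (8.57%, 5.71% and 5.71%, against 17.2%, 18.4% and 24.1%). With both arrays numbered 1 left out it was 11 (31.4%, against 31.2% of all genes), as fewer arrays are compared. With single arrays left out the median difference of the GBP and IRG genes ran from -0.39 to 0.18, and the median of the type I genes from -0.27 to 0.15. The array gap of the GBP and IRG genes was 0.041 among genes above the median level, where Iigp1 is not tested. It was 0.48 in the main setting and 0.45 to 0.48 over the normalization and probeset alternatives.

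The labels give the replicate numbers no meaning, and the main fit did not treat them as pairs. Deviations of same-numbered arrays over all genes correlated at 0.20, 0.0085 and 0.14 for numbers 1, 2 and 3. The arrays numbered 1 and 3 correlated best with their own number, and those numbered 2 did not. Both arrays numbered 1 were on top for 25 of the 35 genes, and the main fit counts that shared shift as spread. With the replicate block in limma 8 of the 35 genes were at an unadjusted p under 0.05 (22.9%, against 6.04% of all genes), with a smallest adjusted p of 0.692. Of these, Ifit1, Ifit3, Oasl2 and Xaf1 were lower with HLX, and Ifi27l2a, Irf1, Rtp4 and Stat2 were higher.

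The count of genes with both arrays numbered 1 on top stayed between 21 and 26, and the count over 2-fold between 7 and 10, over the filter, normalization and probeset alternatives. Of 16 genes with all values printed by rule, 5 kept the sign of the vector difference in every setting, which were Cxcl10, Gbp5, Ifi27l2a, Irf1 and Oasl1. Dim probesets limit what can be read for 7 of the 35 genes.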

Other observations

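Class I antigen presentation, which both interferon types raise, was followed over the same arrays, with Ciita beside it. Tap1, the peptide transporter of class I presentation, measured 8.14, 7.53 and 7.56 with control and 8.35, 7.79 and 7.61 with HLX, and both arrays numbered 1 were on top. Psmb8, a subunit of the immunoproteasome, measured 10.26, 9.86 and 9.93 with control and 10.12, 9.93 and 10.05 with HLX, with the same pair on top by a smaller margin. B2m, the light chain of class I molecules, stayed between 11.98 and 12.19 in all 6 arrays. Ciita, the master regulator of class II genes, ranged from 6.96 in control 2 to 7.67 in control 3, and its arrays numbered 1 were not on top. Of the further type II genes, Psmb9, Psmb10 and Psme1 also had the pair on top, and Tap2, Tapbp and Psme2 did not. All genes of this paragraph were chosen after their values were seen.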
